A study of Mus musculus with 6 samples.

Results

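Arginine use and chitinase-like secretion are classical read-outs of macrophage polarization, and 8 genes of this kind were followed in MC38 tumors from mice given GB2 or PBS. They are Chil1, Chil3, Retnla, Nos2, Ass1, Slc7a2, Il4ra and Il10ra. Members were taken by gene name from a table of 33965 genes, and all 8 were found and passed the filter on low counts. The tumors grew from cells of MC38, a line derived from a mouse colon carcinoma, injected under the skin of C57BL/6 mice that were bought as 6-week-old females. Bulk RNA-seq was measured in 3 PBS-treated and 3 GB2-treated tumors. GB2 is a prodrug in which MSA-2, an agonist of STING, is linked by a disulfide bond to artesunate, an inhibitor of TREM2, and it was given at 10 mg/kg in this tumor model, although no dose is stated for the sequenced tumors by themselves. The labels name no transgene or deletion in either group, and all 6 tumors come from the same cell line.

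Inducible nitric oxide synthase, encoded by Nos2, turns arginine into nitric oxide and citrulline in macrophages and is induced by interferon-gamma and bacterial products. Slc7a2 encodes the transporter CAT2, which brings arginine into the cell, and Ass1 encodes argininosuccinate synthase, which helps to rebuild arginine from citrulline. Chil3 (Ym1) and Chil1 (BRP-39) encode lectins of the chitinase family that lack chitinase activity, and Retnla encodes the secreted protein RELMα or FIZZ1. Il4ra encodes a receptor chain for IL-4 and IL-13, and Il10ra encodes one for IL-10. Outside macrophages, Ass1 is an abundant urea cycle gene of the liver, Chil1 and Chil3 are also made by neutrophils, and Retnla by fat tissue.

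The RefSeq promoter table (build GRCm38.p6) held 5 of the 8 members, namely Chil1, Chil3, Retnla, Ass1 and Il4ra. The windows of 300 bases, of which 250 lie before the start and 50 after it, are printed 5′ to 3′ for the 4 that held a match to a searched motif. Capitals mark the matches. The windows are chr1:134181906-134182205 on the plus strand for Chil1, chr3:106167515-106167814 on the minus strand for Chil3, chr16:48842359-48842658 on the plus strand for Retnla and chr7:125552021-125552320 on the plus strand for Il4ra.
Chil1: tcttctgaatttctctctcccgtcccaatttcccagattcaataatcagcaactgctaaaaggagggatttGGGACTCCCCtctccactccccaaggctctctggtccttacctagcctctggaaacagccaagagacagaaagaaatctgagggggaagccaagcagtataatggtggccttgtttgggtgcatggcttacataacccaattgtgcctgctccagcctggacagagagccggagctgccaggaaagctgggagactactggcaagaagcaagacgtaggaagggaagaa
Chil3: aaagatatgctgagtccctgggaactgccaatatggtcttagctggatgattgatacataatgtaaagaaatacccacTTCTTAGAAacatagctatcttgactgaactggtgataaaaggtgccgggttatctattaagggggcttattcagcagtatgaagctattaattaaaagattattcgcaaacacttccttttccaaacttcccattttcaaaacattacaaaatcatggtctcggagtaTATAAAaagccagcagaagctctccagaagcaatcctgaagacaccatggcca
Retnla: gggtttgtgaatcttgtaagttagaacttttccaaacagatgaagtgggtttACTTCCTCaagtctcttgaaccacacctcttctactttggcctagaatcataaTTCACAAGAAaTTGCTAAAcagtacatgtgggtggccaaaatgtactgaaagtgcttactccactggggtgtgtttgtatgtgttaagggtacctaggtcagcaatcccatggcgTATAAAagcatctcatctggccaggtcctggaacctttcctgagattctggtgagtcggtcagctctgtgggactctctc
Il4ra: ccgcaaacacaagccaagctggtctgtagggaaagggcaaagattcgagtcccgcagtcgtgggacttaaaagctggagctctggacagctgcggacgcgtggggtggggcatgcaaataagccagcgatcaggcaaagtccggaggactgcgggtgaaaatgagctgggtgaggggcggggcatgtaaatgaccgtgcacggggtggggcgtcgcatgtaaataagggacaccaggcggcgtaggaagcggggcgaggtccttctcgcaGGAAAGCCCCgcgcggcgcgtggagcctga

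Of the 8 motifs searched on both strands, the kappa B consensus matched at bases 72 to 81 of the Chil1 window and, on the opposite strand, at bases 271 to 280 of the Il4ra window. It is held by 8.46% of the 32851 promoters in the table. The spacing of a STAT6 site, TTC and GAA with any 4 bases between them, matched at bases 106 to 115 of the Retnla window (6.95% of promoters), and the shorter interferon-gamma activated site TTCNNNGAA at bases 79 to 87 of the Chil3 window (8.30%). Retnla also held a PU.1 motif, GAGGAAGT, on the opposite strand (3.20%) and a C/EBP motif, TTGCNNAA (10.8%). The letters TATAAA (13.6%) lay at bases 221 to 226 of the Retnla window, before the start, and at bases 248 to 253 of the Chil3 window, across the start. The ISRE core, a pair of GAAA with any 2 bases between them (3.44%), and the AP-1 motif TGANTCA (7.81%) had no match in these windows. The Ass1 window had no match to any of the 8. None of the matches overlapped another. A match describes the letters of the window and no binding.

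Total counts per tumor ran from 64764405 to 83690056, with larger libraries in the GB2 group, and about 4 counts stand for 1 read pair. No sequencing batch is given in the labels. Over all genes tested PBS tumor 1 was the least like the others, with correlations of log2 CPM from 0.929 to 0.948, and it had the lowest scaling factor (0.914). By liver genes GB2 tumor 1 differed from the others, and it was the tumor with little liver signal. The tumors grew under the skin, and the source of the liver signal in the other 5 tumors was not tested. Levels are given as CPM, counts scaled to a common library size, which compare tumors but not genes. The 6 hepatocyte markers summed to 320 to 527 CPM in the other 5 tumors and to 4.62 CPM in GB2 tumor 1. Albumin (Alb) was at 335, 347 and 200 CPM in the PBS tumors and at 1.30, 361 and 255 CPM in the GB2 tumors. Macrophage markers were higher in each GB2 tumor, with a summed level of 32.8 to 56.3 CPM in PBS tumors against 116 to 208 CPM in GB2 tumors, and all 10 of them were tested. Of 12 neutrophil markers, 7 were tested, and the list summed to 4.63 to 6.63 CPM in PBS and 21.7 to 24.4 CPM in GB2 tumors, while the defining marker Ly6g had 0 counts in each tumor and so did Mpo. The 4 eosinophil markers in the table summed to at most 0.338 CPM in any tumor. Fibroblast markers were also higher, at 295 to 525 CPM in PBS and 980 to 1352 CPM in GB2 tumors, whereas T cell markers overlapped (0.368 to 6.09 against 0.691 to 3.56 CPM). All 6 monocyte markers had a positive log2 fold change, with a median of 1.19 and the largest for F13a1 (1.97), and their sum, most of which was Fn1 at 65.7 to 242 CPM in PBS and 194 to 310 CPM in GB2 tumors, overlapped. By p value the first 4 were Cd14 (log2 fold change 2.24), Adgre1 (2.55), C1qc (1.94) and Csf1r (2.01) for macrophages, Mmp9 (2.32), Csf3r (2.56), S100a8 (1.71) and Cxcr2 (2.24) for neutrophils, and Col3a1 (1.64), Dcn (1.55), Pdgfra (1.93) and Lum (1.35) for fibroblasts. Epidermis markers overlapped too, at 23.3 to 97.1 and 73.8 to 131 CPM. Epithelial markers of the carcinoma itself were low, since 3 of 6 (Epcam, Krt8 and Krt18) passed the filter and the list summed to 1.43 to 5.70 CPM over all tumors.

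In GB2 tumors the largest differences among the 8 genes were those of Chil1, Chil3, Il4ra, Nos2 and Il10ra, all higher, whereas the 95% intervals of the differences in Retnla, Ass1 and Slc7a2 included 0. No member was called differentially expressed, at an adjusted p below 0.05 together with a difference of 2-fold or more, by the quasi-likelihood test of edgeR after Benjamini-Hochberg adjustment, nor did any other gene of the 19602 tested, so that 0 genes (0.00%) were called. With the raw in place of the adjusted p, called the nominal limits here, 5 of the 8 members were higher, against 733 genes (3.74%) over the whole table, and 0 members were lower, against 180 genes (0.918%). The raw p alone was below 0.05 for 1360 genes. DESeq2, run as an alternative, called 373 genes at the adjusted limits, of which 337 (1.49% of those it tested) were higher and 36 (0.160%) lower. The higher genes included 3 members, Il4ra, Chil1 and Chil3, and the lower ones 0. These DESeq2 calls are to be read with care, since on simulated data it called more genes than edgeR did, both unchanged and changed ones. On the same data edgeR left most of the changed genes uncalled, so its lack of calls does not show that no gene differed. The simulation used the dispersions of edgeR's own fit, so it does not settle which tool is nearer the truth here. In 4 members each GB2 tumor lay above each PBS tumor in CPM, against 8.61% of all genes tested, and in 0 members each lay below, against 6.68%. In FPKM, which divides by transcript length and scales by library totals, the groups were separate in this way for 4 members, against 10.3%. The sign of the fold change was positive for all 8, against 48.3% of all genes. The median log2 fold change of the members was 1.44, and that of all genes was -0.02. The 8 members were chosen with earlier results of these data known, so these contrasts with all genes are a description. In bulk tumor RNA, more cells of a type and more RNA per cell cannot be told apart.

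**Figure D1:**
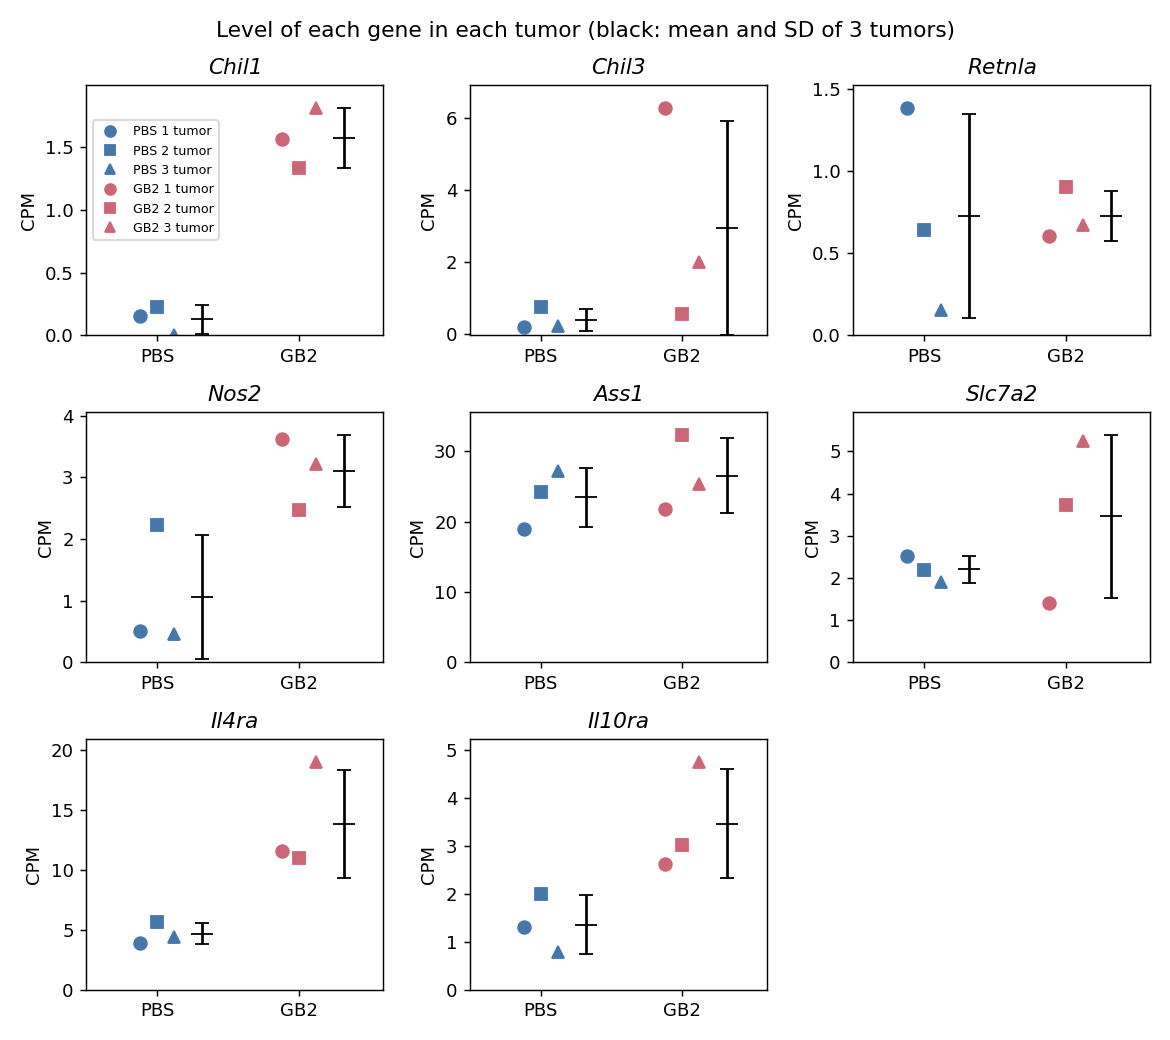
Level of each gene in CPM (vertical axes) in the 3 PBS tumors (blue) and the 3 GB2 tumors (red), with the tumor number given by the symbol and the mean and SD of 3 tumors in black. The groups do not overlap for Chil1, Nos2, Il4ra and Il10ra, and GB2 tumor 1 stands far above the others for Chil3.

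**Figure D2:**
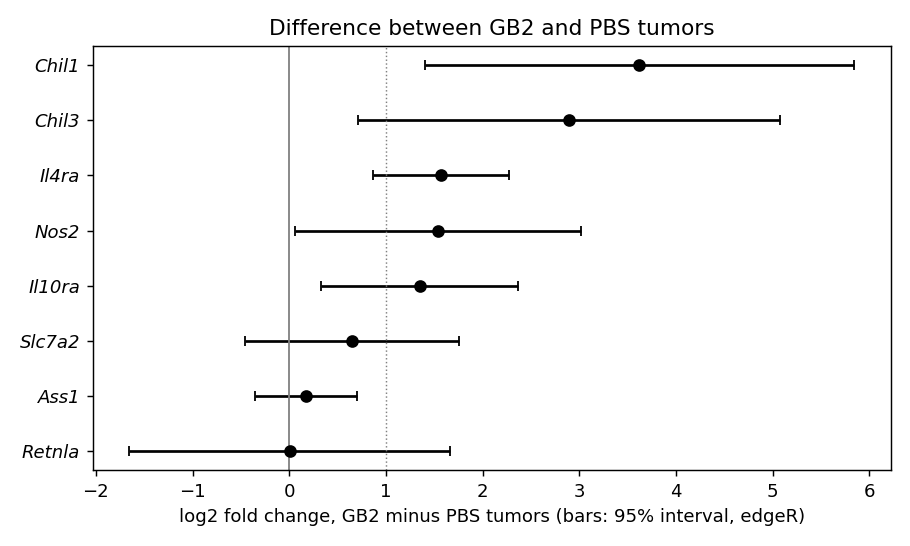
Log2 fold change of GB2 against PBS tumors (horizontal axis) with its 95% interval from edgeR's quasi-likelihood fit for each of the 8 genes. The solid line is at 0 and the dotted line at a 2-fold difference, and the intervals of Retnla, Ass1 and Slc7a2 include 0.

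The chitinase-like genes had the widest fold changes of the 8, from low counts in the PBS tumors. Chil1 (ENSMUSG00000064246, chromosome 1 from 134109914 to 134117919 on the positions of the deposited table) had 9, 16 and 0 counts in the PBS tumors and 131, 111 and 154 counts in the GB2 tumors. In CPM these are 0.152, 0.227 and 0 against 1.56, 1.33 and 1.81. PBS tumor 3 had 0 counts, which allows up to 0.170 CPM. All GB2 tumors were high and close to each other, all PBS tumors were near the detection limit, and the groups did not overlap. Chil1 had a log2 fold change of 3.62 (SE 0.95, unadjusted p = 0.00585, adjusted p = 0.346, edgeR). Counted as read pairs, 99 in GB2 against 6 in PBS tumors give a ratio of 13.1 with an exact 95% interval from 5.81 to 36.6, which covers counting error only. Its log2 fold change stayed between 3.04 and 4.39 with each tumor left out in turn.

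Chil3 (ENSMUSG00000040809, chromosome 3 from 106054870 to 106074880) was at 0.203, 0.752 and 0.226 CPM in PBS tumors and at 6.28, 0.565 and 2.00 CPM in GB2 tumors. GB2 tumor 2 lay below PBS tumor 2, so the groups overlapped, and GB2 tumor 1 stood well above the other GB2 tumors. The log2 fold change of 2.89 (SE 0.94, unadjusted p = 0.0160, adjusted p = 0.529, edgeR) was 1.70 without GB2 tumor 1, where edgeR gave an unadjusted p of 0.0756. Without PBS tumor 1 it was 2.59, with an unadjusted p of 0.0516 in edgeR. The log2 fold change rose to 3.77 without PBS tumor 2 (unadjusted p = 0.0125, edgeR) and to 3.38 without GB2 tumor 2 (unadjusted p = 0.00398, edgeR). Of the 1440 windows of 100 bases in its transcript, 78 (5.42%) are also found in transcripts of other genes, 54 of them in Chil4, which has no row of its own here, so reads of that gene could have been counted for Chil3.

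The other chitinase and resistin genes were at low levels or similar between groups. Of 14 genes listed for both families, 10 have a row and 9 were tested, 7 of which were higher and 2 lower in GB2 tumors. Of these, 2 were higher at the nominal limits, Chil1 and Chil3. Chit1, an active chitinase of macrophages, was at 0.271, 0 and 0.170 CPM in PBS and 0.417, 0.721 and 0.388 CPM in GB2 tumors, and its log2 fold change of 1.80 had an unadjusted p of 0.135. The family gene with the highest level per length was Chid1, at a mean of 3.53 FPKM and a log2 fold change of -0.07.

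Retnla (ENSMUSG00000061100, chromosome 16 from 48662914 to 48664824) had 82, 45 and 11 counts in PBS and 51, 75 and 57 counts in GB2 tumors, or 1.39, 0.639 and 0.156 CPM against 0.607, 0.902 and 0.671 CPM. The highest and the lowest of the 6 values were both in PBS tumors, and the means were 0.727 ± 0.620 and 0.727 ± 0.155 CPM (SD, n = 3). The log2 fold change was 0.0039 (SE 0.71, adjusted p = 0.999, edgeR), with a 95% interval from -1.66 to 1.66, and a difference within it was not detectable here. It was 0.88 without PBS tumor 1 and -0.47 without PBS tumor 3. PBS tumor 3, which had the lowest Retnla, also had the lowest sum of 8 adipocyte markers, 27.2 CPM against 81.9 to 114 CPM in the other 5 tumors, and Adipoq was at 0.170 CPM there against 3.53 CPM or more elsewhere. The adipocyte sums were 96.3 and 81.9 CPM in PBS tumors 1 and 2, and 113, 87.0 and 114 CPM in the GB2 tumors. The Retnla values of these 5 tumors did not follow the order of their sums. The part of fat tissue in the Retnla values was not tested.

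Of the arginine enzymes, Nos2 was higher in GB2 tumors. Nos2 (ENSMUSG00000020826, chromosome 11 from 78811613 to 78851080) was at 0.507, 2.23 and 0.467 CPM in PBS tumors and at 3.62, 2.48 and 3.22 CPM in GB2 tumors. The groups did not overlap, although PBS tumor 2 was close to GB2 tumor 2. Nos2 had a log2 fold change of 1.54 (SE 0.64, unadjusted p = 0.0438, adjusted p = 0.704, edgeR). By exact permutation of the tumors (two-sided) p was 0.1, which is as low as 3 against 3 can reach. Without PBS tumor 2 the log2 fold change was 2.67 (unadjusted p = 4.80e-04), and without any of the other 5 tumors the unadjusted p was above 0.05, from 0.0598 to 0.105. In PBS tumor 2, the interferon-inducible chemokine genes Cxcl9 and Cxcl10 were also high, at 11.2 and 22.1 CPM against 1.67 and 7.78 CPM in PBS tumor 1 and 0.509 and 2.82 CPM in PBS tumor 3. Among the GB2 tumors, tumor 1 had the highest Nos2 and the lowest Cxcl9 (3.41 CPM), whereas Cxcl10, at 10.3, 6.83 and 32.6 CPM, was lowest in tumor 2, as Nos2 was.

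Ass1 (ENSMUSG00000076441, chromosome 2 from 31360219 to 31410684) had the highest level per length of the members (9.93 FPKM on average) and was at 19.0, 24.2 and 27.3 CPM in PBS and 21.9, 32.4 and 25.4 CPM in GB2 tumors. The groups overlapped widely, with a log2 fold change of 0.17 (SE 0.23, 95% interval -0.35 to 0.70, adjusted p = 0.866, edgeR). Of its 1597 transcript windows of 100 bases, 622 (38.9%) are shared with the copy Gm5424, which was itself listed with 594 to 1585 counts per tumor. The counts of Ass1 are therefore uncertain by how reads were divided between the copies.

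Ass1 belongs to the urea cycle, and the liver signal was set beside it. Cps1, which encodes the first enzyme of that cycle, was at 13.1, 11.6 and 6.95 CPM in PBS tumors and at 0.0834, 14.2 and 10.7 CPM in GB2 tumors. Otc, another urea cycle gene of the liver, had 70 to 155 counts in the other 5 tumors and 0 counts in GB2 tumor 1. The ratio of Ass1 to Cps1 was 1.45, 2.09 and 3.92 in PBS tumors and 2.28 and 2.37 in GB2 tumors 2 and 3, whereas it was 262 in GB2 tumor 1. Ass1 itself was thus within the range of the other tumors in GB2 tumor 1. The part of liver RNA in the Ass1 values of the other 5 tumors was not tested. Without GB2 tumor 1 the log2 fold change of Ass1 was 0.30 (unadjusted p = 0.298, edgeR).

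**Figure D3:**
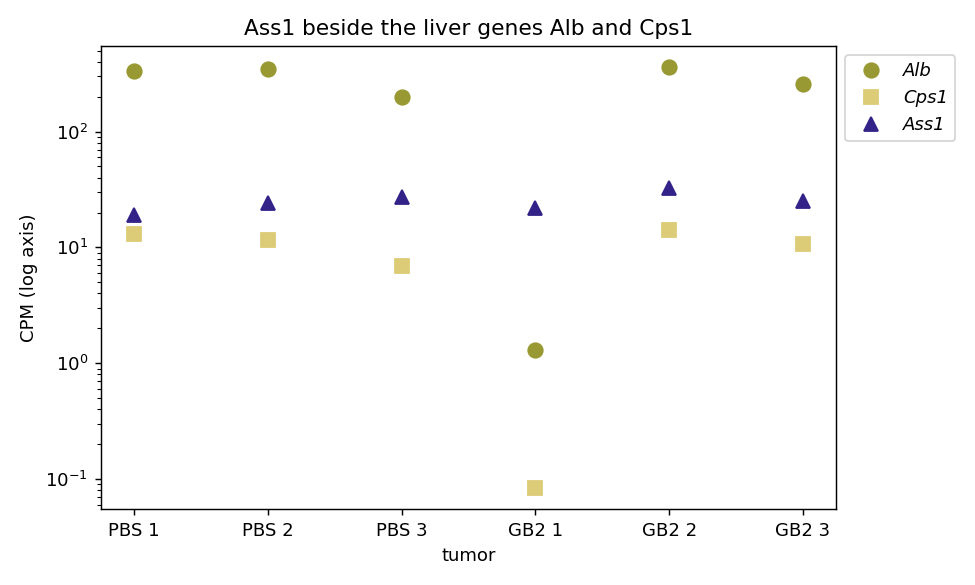
Levels of Ass1 and the liver genes Alb and Cps1 in each tumor, in CPM on a logarithmic vertical axis. In GB2 tumor 1, Alb and Cps1 drop to 1.30 and 0.0834 CPM while Ass1 stays at 21.9 CPM.

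Slc7a2 (ENSMUSG00000031596, chromosome 8 from 41315433 to 41375345) had 149, 155 and 134 counts in PBS tumors and 119, 310 and 446 counts in GB2 tumors. In CPM the means were 2.205 ± 0.312 and 3.46 ± 1.93 (SD, n = 3), with GB2 tumors at 1.42, 3.73 and 5.25 CPM. The PBS values were close together, while the GB2 tumors held both the lowest and the highest value of the 6. Slc7a2 had a log2 fold change of 0.65 (SE 0.47, adjusted p = 0.789, edgeR), and it was 0.22 when GB2 tumor 3 was omitted. Without GB2 tumor 1, the tumor with the lowest Slc7a2, it was 1.03 (unadjusted p = 0.0209, adjusted p = 0.800, edgeR), and Slc7a2 then met the nominal limits.

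In the wider arginine and polyamine pathway, 34 genes were listed and all were tested, of which 17 were higher and 17 lower in GB2 tumors with a median log2 fold change of -0.0021. At the nominal limits 3 were higher, namely Nos2, Nos3 and Gatm, and 0 were lower. Nos3, the nitric oxide synthase of endothelium, was at 3.13, 2.43 and 2.90 CPM in PBS and 6.76, 4.95 and 6.18 CPM in GB2 tumors, a log2 fold change of 1.08 (SE 0.27, unadjusted p = 0.00416, adjusted p = 0.307, edgeR). Endothelial markers moved with it, since the list summed to 77.7 to 91.3 CPM in PBS and 139 to 158 CPM in GB2 tumors, with 6 of 7 higher and Vwf lower, at a log2 fold change of -0.48. Their part in the Nos3 difference was not tested. Gatm, which uses arginine to make the creatine precursor, had a log2 fold change of 1.58 (unadjusted p = 0.0105, adjusted p = 0.448). The pathway gene with the highest level per length was Odc1, the ornithine decarboxylase that starts polyamine synthesis, at a mean of 155 FPKM and a log2 fold change of -0.13. The arginine transporter with the highest level was Slc7a1 (CAT1), at 17.2 FPKM against 0.296 FPKM for Slc7a2, and its log2 fold change was -0.02.

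Il4ra (ENSMUSG00000030748, chromosome 7 from 125151292 to 125178646) had the smallest p value of the 8 genes. It was at 3.91, 5.63 and 4.43 CPM in PBS tumors and at 11.6, 10.95 and 19.0 CPM in GB2 tumors. The lowest GB2 tumor was well above the highest PBS tumor. The log2 fold change was 1.57 (SE 0.30, unadjusted p = 0.00102, adjusted p = 0.216, edgeR), it stayed between 1.27 and 1.73 with each tumor left out, and the unadjusted p was at most 0.00418 in those fits. DESeq2 gave it an adjusted p of 3.85e-04.

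Il10ra (ENSMUSG00000032089, chromosome 9 from 45165135 to 45180447) was at 1.30, 1.99 and 0.778 CPM in PBS tumors and at 2.61, 3.02 and 4.74 CPM in GB2 tumors. The groups did not overlap, and GB2 tumor 3 was the highest for both receptor chains. Il10ra had a log2 fold change of 1.35 (SE 0.44, unadjusted p = 0.0162, adjusted p = 0.531, edgeR). The unadjusted p was 0.0644 without GB2 tumor 3.

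Of the ligands of these receptors, Il10 was near the detection limit and Il13 has no row of its own here. Il10 had 0 counts in the PBS tumors and 8, 0 and 7 counts in the GB2 tumors, at most 2 read pairs in a tumor. Il4 had 148, 155 and 62 counts in PBS and 137, 93 and 78 counts in GB2 tumors, a log2 fold change of -0.60 (unadjusted p = 0.240). Per length Il4 was at a mean of 1.38 FPKM in PBS and 0.976 FPKM in GB2 tumors, beside 0.723 and 2.26 FPKM for Il4ra. Of 16 tested genes of IL-4, IL-13 and IL-10 signalling, 15 were higher and 1, Il4, was lower, with a median log2 fold change of 0.30, and 2 were higher at the nominal limits, the members Il4ra and Il10ra themselves. The shared chain Il2rg (log2 fold change 0.86, unadjusted p = 0.0215, edgeR) and the partner chain Il13ra1 (0.55, unadjusted p = 0.0572, edgeR) lay above the PBS range in each GB2 tumor. Il10rb, the second chain of the IL-10 receptor and the list's gene with the highest level at 36.9 FPKM, had a log2 fold change of 0.17. Stat6 (0.13) and Stat3 (0.08), the transcription factors downstream, differed little.

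Genes that IL-4 induces in macrophages were compared with those induced by interferon-gamma and lipopolysaccharide, and both lists contain members. Of 16 tested IL-4-responsive genes, which include Chil3 and Retnla, 13 were higher and 3 lower in GB2 tumors, the median log2 fold change was 0.62, and 4 were higher at the nominal limits. These were Mrc1, which encodes CD206 (log2 fold change 1.95), the β-glucan receptor gene Clec7a (2.07), Tgm2 (1.13) and Chil3. Ccl17 had 0 counts in each tumor. Of 22 tested genes of the other list, which include Nos2, Ass1, Slc7a2 and Il10ra, 21 were higher and 1 lower, the median was 1.12, and 9 were higher at the same limits. By p value the first 4 were Il1b (2.00), Irf5 (1.56), Cd40 (2.91) and Il10ra. Ccl5 was the lower gene, at a log2 fold change of -0.89, and Il12b had 3 counts in PBS tumor 2 and 0 elsewhere. The difference between the lists was not tested.

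The members were also set relative to macrophage markers. The summed CPM of the 10 markers was used as the denominator in each tumor, with Cd68 the most abundant of them per length at 15.8 FPKM, and Chil1 was left out since it had 0 counts in PBS tumor 3. The log2 ratios of Il4ra, Il10ra and Nos2 differed by -0.20, -0.34 and 0.18 between GB2 and PBS tumors. The Nos2 difference turned to -0.20 without PBS tumor 1 and to -0.12 without GB2 tumor 1, and it was 0.75 without PBS tumor 2. That of Il4ra lay between -0.37 and -0.0091 with each tumor left out, and that of Il10ra between -0.47 and -0.18. The Il10ra ratio was -5.48, -5.50 and -5.46 in GB2 tumors against -5.20, -4.83 and -5.40 in PBS tumors, so that each GB2 tumor was slightly lower. Ass1 and Slc7a2 were lower relative to the markers in each GB2 tumor than in any PBS tumor, with average differences of -1.57 and -1.28. Their own CPM overlapped between the groups, while the marker sum was higher in each GB2 tumor. Slc7a2 itself was below each PBS tumor in GB2 tumor 1 (1.42 CPM) and above each in GB2 tumors 2 and 3. The ratios alone do not tell a lower gene from a higher marker sum. A gene with a steady level also falls in this ratio, and the share of all genes that do so was not computed. Retnla overlapped, at -1.27, and ran from -0.61 to -1.92 with a tumor left out (-0.61 without PBS tumor 1, -1.92 without PBS tumor 3). Chil3 differed by 0.82 with GB2 tumors ranging from -7.92 to -4.21, a difference that became -0.22 without GB2 tumor 1 and 1.64 without GB2 tumor 2. With Csf1r alone as the denominator, the differences were -0.54 for Il4ra, -0.68 for Il10ra and -0.16 for Nos2, whose sign thus turned, and Ass1 and Slc7a2 again lay below PBS in each GB2 tumor, at -1.91 and -1.62. Il10ra did so with both denominators, and Retnla, at -1.61, with Csf1r but not with the summed markers. The summed neutrophil markers were higher in each GB2 tumor as well, and their part in the Chil1 and Chil3 values was not tested. Of the 7 tested, 6 were higher and 1, Ltf, was lower (log2 fold change -0.43), and Camp and Elane had counts in PBS tumors only. Mmp9, which was at 1.32 to 3.31 CPM in PBS and 9.48 to 12.4 CPM in GB2 tumors, made up much of the sum.

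**Figure D4:**
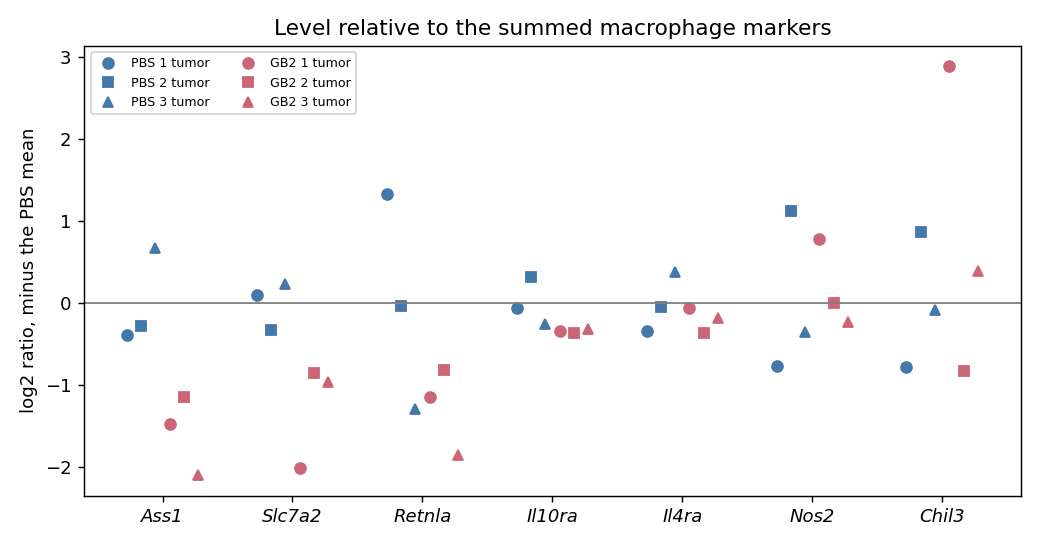
Log2 of each gene's CPM over the summed CPM of 10 macrophage markers (vertical axis, minus the PBS mean) in each tumor. All GB2 tumors lie below all PBS tumors for Ass1, Slc7a2 and Il10ra, and Il10ra varies little among GB2 tumors. The marker sum itself was higher in each GB2 tumor, so a gene with a steady level also falls in this ratio. The share of all genes that do so was not computed.

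Levels between the 8 genes were compared per transcript length. In order of the mean FPKM over 6 tumors they were Ass1 (9.93), Il4ra (1.49), Retnla (1.13), Chil3 (1.002), Il10ra (0.663), Nos2 (0.457), Slc7a2 (0.296) and Chil1 (0.289). The lowest Ass1 value, 6.74 FPKM, was above the highest Il4ra value, 3.14 FPKM, and each later pair of neighbours overlapped in range. This order pools groups that differed. In the PBS tumors Retnla (1.08 FPKM) came before Il4ra (0.723), and Slc7a2 (0.222), Chil3 (0.221) and Chil1 (0.0387) came last. In the GB2 tumors Il4ra (2.26) and Chil3 (1.78) followed Ass1, with Chil3 at 3.82 FPKM in GB2 tumor 1 alone, and Slc7a2 (0.370) came last after Chil1 (0.539).

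**Figure D5:**
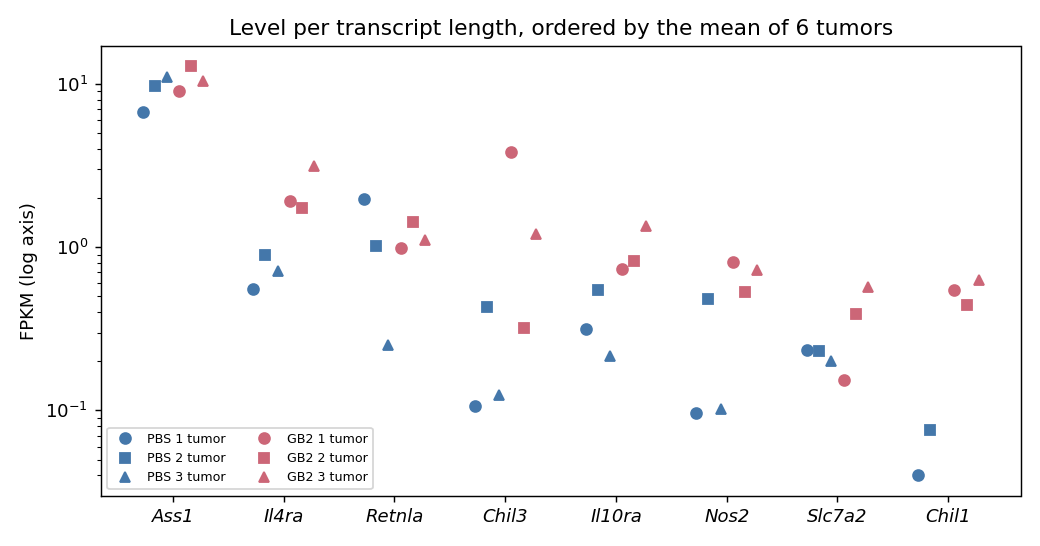
FPKM of the 8 genes on a logarithmic vertical axis, ordered by their mean over the 6 tumors, with PBS tumors in blue and GB2 tumors in red. Chil1 in PBS tumor 3 was 0 and is not drawn, and Ass1 is the gene whose range stands clear of its neighbour.

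The genes most like each member were sought by Pearson's correlation of log2 CPM over the 6 tumors among all genes tested. Nos2 was closest to Gapt (r = 0.999), Gm5150 (0.996) and Nfkbid (0.994). For Il4ra the nearest were Zadh2 (0.997), Siglec1 (0.997) and Vav1 (0.996), and for Il10ra Serpinb9 (0.998), Gatm (0.997) and Lcp2 (0.996). Chil1 was nearest to Adamts15 (0.994), Calm4 (0.993) and Prdm1 (0.992), and Chil3 to Vegfd (0.996), Nuak1 (0.988) and Itgb1bp2 (0.979). Retnla followed Gm48048 (0.989), Klrd1 (0.989) and Cd72 (0.986), Ass1 followed Mef2b (0.994), Napa (0.986) and Rpusd1 (0.982), and Slc7a2 followed Top3a (0.986), Gm5910 (0.982) and Amigo2 (0.975). With 6 tumors that share their libraries and their treatment groups, such values are high for many genes and are given as a description. Among the members themselves, Chil1 and Il10ra (0.95), Il4ra and Il10ra (0.92) and Nos2 and Il10ra (0.89) were the most alike, and Retnla and Ass1 the least (-0.36).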

How the data were processed

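Bulk RNA-seq of 3 PBS and 3 GB2 tumors was analysed, 1 library per tumor, grouped by the sample labels. Libraries were poly-A selected, stranded and paired-end. The submitters' processing notes list cutadapt 1.9, HISAT2 2.2.1, StringTie 2.1.6, DESeq2, edgeR and the build mm10, without roles. The estimated counts that the authors deposited are whole numbers, not scaled between libraries, and about 4 of them equal 1 read pair, since values of 4 (7017) outnumber those of 3 (2984) or 5 (2017). The FPKM values deposited by the authors are scaled by transcript length and library total. Gene positions are those of the table. They equal the GRCm38 annotation for 595 of 31999 shared gene IDs and for 0 of the 8 members, so they are not mm10 positions, and promoter windows, which are, were kept apart from them.

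In R 4.3.3, edgeR 4.0.16 was used on the counts with filterByExpr (minimum count 10), TMM scaling, glmQLFit and glmQLFTest with Benjamini-Hochberg adjustment over 19602 genes. CPM use the TMM-scaled library size, log2 CPM a prior count of 2, and standard errors come from the F statistic. The common dispersion amounts to a 40.5% coefficient of variation among tumors that share a group. The detection limit was set at 3 read pairs, 0.141 to 0.203 CPM per tumor, and intervals on counts (SciPy 1.17.1) and this limit cover counting error only. Alternatives were DESeq2 1.42.0, limma 3.58.1 on log2(FPKM + 1) or log2(FPKM + 0.1) with a mean FPKM of at least 0.1, RLE scaling, no filter, counts divided by 4, a replicate block and leaving out each tumor. The fits were tested on simulated data first. Transcript windows were compared across GENCODE M21 transcripts.

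The labels do not say whether tumors came from separate litters or days, so p-values measure the spread between these tumors. The 8 members and the gene lists were chosen with earlier results of these data known. Named genes were the members, and in each list the tested genes at the nominal limits, a raw p below 0.05 together with a difference of 2-fold or more (at most the 4 with the smallest p), the gene with the highest mean FPKM and markers without counts, with the 3 genes most correlated with each member. The lists of cell type markers are given mainly by their counts and sums, without every name this rule allows. Other genes of the lists named for contrast, and Gm5424, were chosen after their values were seen. A gene that the selection by name also matched, and others of the lists, are not reported here.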

Additional observations from a re-analysis of the deposited data

How the results depend on the processing

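Depth limits what can be seen for genes with few read pairs, such as Chil1, Chil3 and Retnla in PBS tumors. The log2 fold changes of the other 7 members kept their direction in all alternatives. Retnla had none, at -0.0041 with RLE scaling and between -0.47 and 0.88 with each tumor left out (-0.07 with PBS tumor 2 omitted, -0.47 with PBS tumor 3 and -0.17 with GB2 tumor 2). DESeq2 called 373 genes where edgeR called 0, with Chil1 (adjusted p = 8.63e-04), Chil3 (0.0196) and Il4ra (3.85e-04) among them, while Nos2 (0.272) and Il10ra (0.117) were not, and the cause was not tested. On the simulated data DESeq2 also called more genes than edgeR did, both changed and unchanged ones. Genes at the nominal limits numbered 733 higher and 180 lower. limma on log2(FPKM + 1) gave 95 and 36, and 92 and 26 with no filter, and 0 of the 8 members in both, since its fold changes shrink for low genes. With a pseudocount of 0.1 in place of 1 it gave 658 and 167, and 5 members. The lower count was 338 with no filter and 382 with DESeq2, and with tumors left out it ran from 123 to 548 (310 without PBS tumor 2, 548 without PBS tumor 3) and the higher count from 503 to 950. The count of 5 members at these limits became 3 to 5 with tumors left out. It was 3 when PBS tumor 1 (Chil3 and Nos2 lost) or GB2 tumor 3 (Nos2 and Il10ra lost) was omitted. It was 4 without GB2 tumor 1, where Chil3 and Nos2 were lost and Slc7a2 was gained.

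The replicate numbers do not pair the tumors, since deviations of equal-numbered tumors correlated at 0.03, 0.15 and -0.24. With a replicate block, 4 members stayed at the limits and Chil3 did not (unadjusted p = 0.0643, edgeR), 636 genes were higher and 128 lower, and 0 were called.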
